A study of Mus musculus with 4 samples.

Results

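The comparison described here is oxygen-glucose deprivation (OGD) against normal culture in HT22 cells that carried a control negative lentivirus. HT22 is an immortalised mouse hippocampal neuronal line, labelled as strain C57BL/6. The comparison rests on 2 of the series' 4 libraries of total RNA, 1 per group. The control-normal cells were infected with the control negative lentivirus and grown in DMEM/F12 medium with 10% fetal bovine serum. The control-OGD cells carried the same virus and were deprived of oxygen and glucose, a cell model of ischaemia. The other 2 libraries, from cells infected with a lentivirus aimed at the long noncoding RNA Neat1 and kept in the same pair of conditions, serve below as a second pair of cultures, and the one in normal culture also as the reference for setting genes apart. The length of OGD, the oxygen level and whether the OGD medium held serum go unnamed in the labels, so loss of oxygen, glucose and serum cannot be told apart. With 1 library per group there was no test, and no difference below has a replicate check.

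Cells that lose oxygen stabilise the HIF transcription factors, because the prolyl hydroxylases of the Egln family need oxygen to mark HIF alpha subunits for destruction by the Vhl ubiquitin ligase. HIF is known to turn on genes of glucose uptake, glycolysis, pyruvate dehydrogenase inhibition, mitophagy and blood vessel growth. Shortage of amino acids or energy and misfolded protein in the endoplasmic reticulum (ER) act through kinases that phosphorylate eIF2alpha. That lowers general translation and favours the transcription factor Atf4, which drives genes of amino acid synthesis and transport, tRNA charging and, through Ddit3 (CHOP), cell stress. These are the pathways by which the gene groups below are ordered.

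Levels are given as scaled counts, which are reads per gene divided by the size factor that the authors' deposited table used for each library. The libraries held 18596774 reads in genes for normal culture and 17232866 for OGD. A gene's log2 value is the log2 of OGD over normal culture after 10 was added to both scaled counts, which draws low genes toward 0. It was computed for 13930 genes with 20 or more in the larger of the 2 values. A gene is called higher or lower at a 2-fold difference on this scale, a rule of size only. Folds are given without the added number, with a 95% exact interval that covers counting error alone, since the reads carried no molecular identifiers and each group was 1 library. The median log2 value over all tested genes was -0.03. Scaling by total counts in place of the authors' factors lowered it by 0.30, so a gene group with a median between 0 and 0.30 had one below 0 on that scale. Counts on that scale are given below where a group was said to lie within 2-fold or mostly on 1 side. They are to be read against all 14127 genes tested on that scale. Of these, 867 were higher and 3795 lower, with 1877 of the lower ones not set apart.

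The control-normal library stood apart from the rest of the series. It held neuronal transcripts that the other libraries held at a small fraction of that level (described near the end, with markers of other cells), and 2482 of the tested genes were over 2-fold higher in it than in the knockdown library grown in the same medium. These genes are set apart below wherever genes lower under OGD are described. They took 5.39% of the reads of the control-normal library, 0.964% in knockdown cells in normal culture, 1.56% in the control-OGD library and 1.99% in the knockdown-OGD library. The 2 libraries of this rule also differ in the virus, so effects of the Neat1 knockdown cannot be told apart in it. Not every gene set apart was high in control-normal cells alone: under OGD 120 of the 2482 were higher. Fewer cells of a type and less RNA per cell cannot be told apart in bulk RNA. Where the neuronal and other brain-cell transcripts of the control-normal library came from was not tested.

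Under OGD 1477 of the 13930 tested genes were at least 2-fold higher (10.6%). At least 2-fold lower were 2756 genes (19.8%), of which 1654 were among those set apart. Of the 11448 genes not set apart, 1102 were lower (9.63%). Counts of list members below are to be read against these shares. Several lists lay near them, such as DNA replication (5 of 33 higher), Dusp and Spry inhibitors (3 of 18) and nuclear pore genes (3 of 27). Of the higher genes and the lower genes not set apart together, higher genes made up 57.3%, and 31.6% when total counts set the scale. Larger differences were fewer: 191 genes were at least 4-fold and 34 at least 8-fold higher, and of the genes not set apart 165 were at least 4-fold and 26 at least 8-fold lower. For genes not set apart the quartiles of the log2 value were -0.42 and 0.60. The 2-fold line ran through a dense range of values, with 246 genes less than 0.1 above it on the higher side and 320 less than 0.1 below it. The authors' deposited table marks 213 genes as up and 601 as down, by a rule not given in the sources used here. Of those marked down, 548 were set apart.

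**Figure D1:**
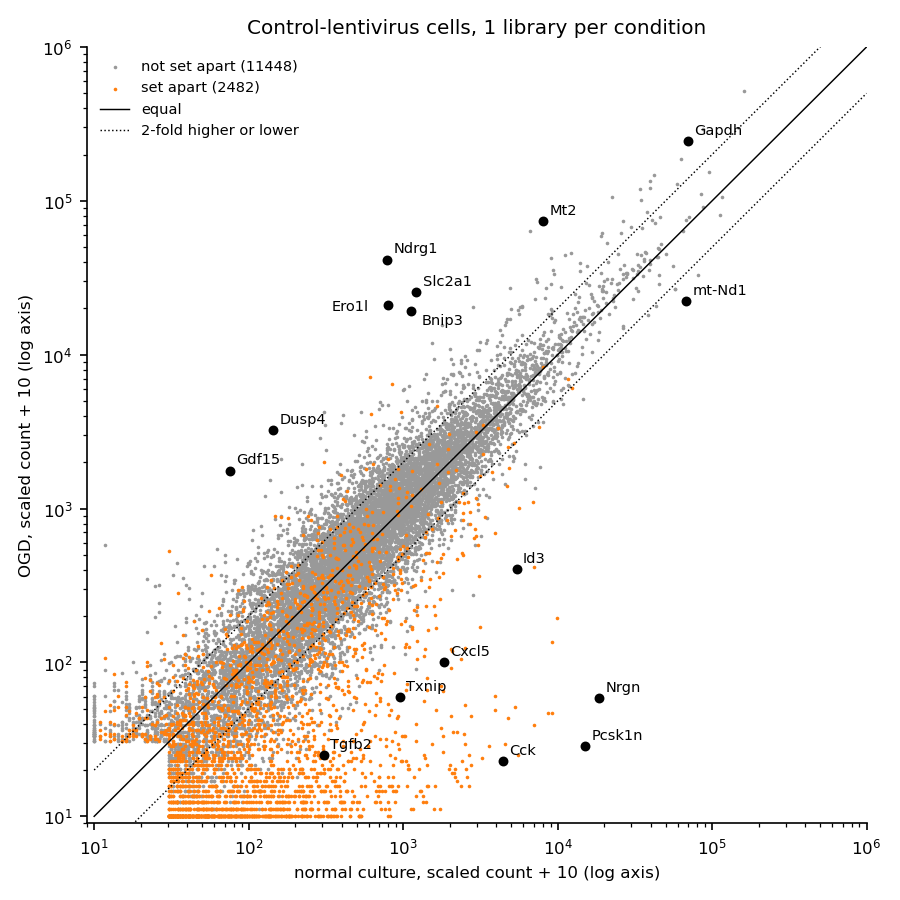
Scaled count plus 10 under OGD (vertical, log axis) against normal culture (horizontal, log axis) in control-lentivirus cells, 1 point per tested gene, with lines of equality and of a 2-fold difference. Genes set apart (orange, 2482) fill the lower right of the cloud, and Ndrg1, Ero1l, Slc2a1 and Bnip3 stand far above the line of equality.

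Known targets of HIF and of the Atf4 axis were among the 15 genes with the highest log2 values, leaving out genes that carry only a provisional name (such as Gm or Rik names). Ndrg1, a hypoxia-induced regulator of growth and differentiation (ENSMUSG00000005125, chromosome 15, 66929318 to 66969640, minus strand, GRCm38), had the highest log2 value of all genes with 100 or more scaled counts. It stood at 779.9 in normal culture and 41546 under OGD, 53.3-fold higher, interval 49.9 to 57.0. Ero1l, the ER oxidase that forms disulfide bonds, stood at 789 and 21114, 26.8-fold higher, interval 25.1 to 28.6. Slc2a1, the glucose transporter GLUT1, stood at 1207 and 25422, 21.1-fold higher, interval 19.9 to 22.2. Bnip3, a receptor that draws mitochondria into autophagy, stood at 1118 and 19326, 17.3-fold higher, interval 16.3 to 18.3. These 4 were abundant under OGD, and each is a known HIF target.

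A second set among the 15 highest was scarce in normal culture. The secreted stress cytokine Gdf15 stood at 65.6 and 1755, 26.7-fold higher, interval 21.2 to 34.1. Dusp4, a nuclear MAP kinase phosphatase, stood at 134 and 3239.5, 24.2-fold higher, interval 20.6 to 28.6. Klhl24, a ubiquitin ligase adaptor, rested on 14 reads in normal culture and 291 under OGD, 27.9-fold higher, interval 16.3 to 51.6. Crebrf, a regulator of the unfolded protein response and of metabolism, rested on 28 and 373 reads, 17.9-fold higher, interval 12.2 to 27.2. The intervals of the last 2 are wide because few reads lie behind the normal value. The small Maf factor Maff (log2 3.77), the cell cycle inhibitor Cdkn1a (log2 3.70) and the placental growth factor Pgf (log2 3.49) were among the 15 too. The rest were Lims2, Dgkh, Tmem45a and Tcim, with log2 values between 3.52 and 3.66, of which Tmem45a was over 2-fold higher in control-normal than in knockdown-normal cells. All 15 were also at least 2-fold higher under OGD in the knockdown pair, at log2 values from 1.99 to 5.06. By value, 2 provisionally named genes would stand among them, and both are named after their values were seen. The protein-coding 2610528A11Rik had 2 reads in normal culture and 489 under OGD, and 11 and 341 in knockdown cells. The antisense Gm17035, at log2 4.10, lies within Ndrg1 and is set apart, and its reads may not be separable from those of Ndrg1.

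**Figure D2:**
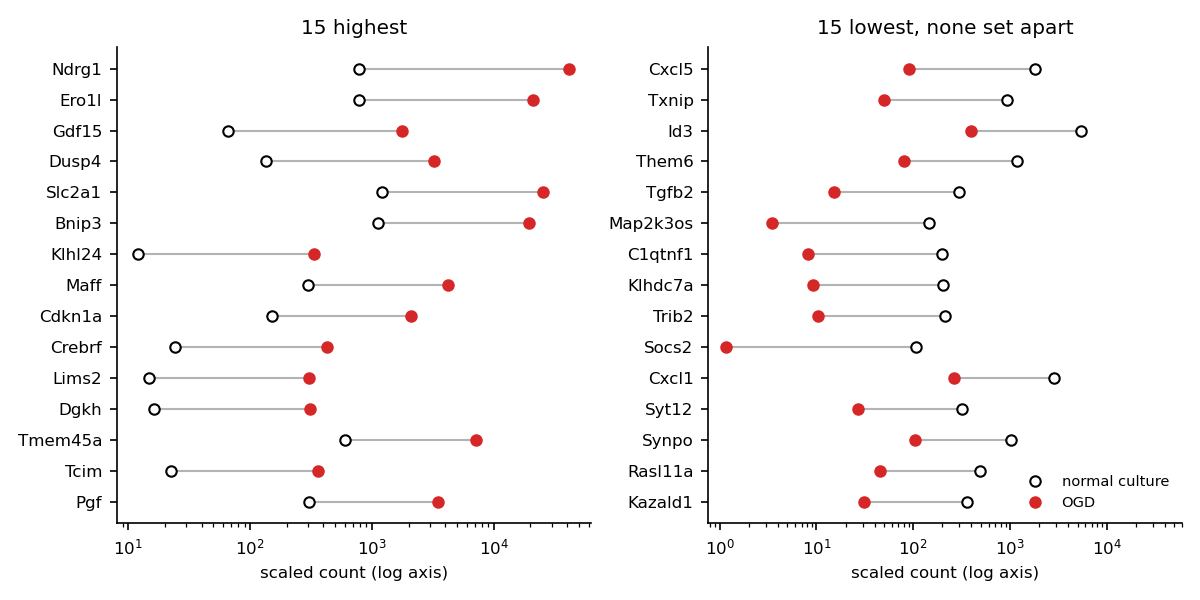
Scaled counts (log axis) in normal culture (open circles) and under OGD (filled circles) for the 15 highest genes and the 15 lowest genes not set apart, 1 library each and no error bars. Ndrg1 runs from 779.9 to 41546 and Cxcl5 from 1825 down to 90.3.

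Most tested hypoxia markers and Atf4-axis genes were higher (counts below), and promoters of some of them were read. The core of the HIF response element, ACGTG, and the CARE motif of Atf4 and its partners, TGATGNAA, were searched on both strands of RefSeq promoters (GRCm38.p6), from 250 bases before to 50 after each start. ACGTG lies within the E-box CACGTG, so the 2 overlap. The windows below are the 250 bases before the start of 3 HIF targets and 2 Atf4-axis genes, shown for the placement of these letters, with the matches in capitals. They lie at chr14:45318573-45318822 (minus strand), chr4:119108495-119108744 (plus), chr7:138909507-138909756 (minus), chr2:119350992-119351241 (plus) and chr1:191183334-191183583 (minus).
Ero1l: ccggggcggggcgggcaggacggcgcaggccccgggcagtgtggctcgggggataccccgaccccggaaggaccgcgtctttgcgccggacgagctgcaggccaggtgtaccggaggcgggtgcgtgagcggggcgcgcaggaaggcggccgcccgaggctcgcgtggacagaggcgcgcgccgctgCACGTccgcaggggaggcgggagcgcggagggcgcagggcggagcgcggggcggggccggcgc
Slc2a1: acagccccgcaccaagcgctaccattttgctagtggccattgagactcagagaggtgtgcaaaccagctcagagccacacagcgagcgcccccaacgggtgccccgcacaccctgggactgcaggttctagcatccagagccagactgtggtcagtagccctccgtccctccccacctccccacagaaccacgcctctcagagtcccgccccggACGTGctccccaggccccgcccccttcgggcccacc
Bnip3: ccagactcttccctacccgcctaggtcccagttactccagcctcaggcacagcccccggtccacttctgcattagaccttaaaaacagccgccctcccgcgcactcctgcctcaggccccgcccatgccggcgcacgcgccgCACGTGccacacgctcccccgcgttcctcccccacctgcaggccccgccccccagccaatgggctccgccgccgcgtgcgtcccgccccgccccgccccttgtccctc
Chac1: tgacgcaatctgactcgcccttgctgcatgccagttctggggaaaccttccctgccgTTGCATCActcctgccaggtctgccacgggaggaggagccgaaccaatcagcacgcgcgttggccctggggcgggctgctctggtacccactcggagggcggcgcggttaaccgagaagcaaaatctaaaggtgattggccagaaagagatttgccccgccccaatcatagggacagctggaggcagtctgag
Atf3: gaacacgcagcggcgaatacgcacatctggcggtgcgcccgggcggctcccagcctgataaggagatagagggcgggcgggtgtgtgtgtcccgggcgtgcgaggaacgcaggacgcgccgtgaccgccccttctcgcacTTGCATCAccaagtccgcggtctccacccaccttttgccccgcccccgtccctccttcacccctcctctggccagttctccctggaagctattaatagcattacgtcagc

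Ero1l and Slc2a1 each hold 1 match to ACGTG, which starts 63 and 36 bases before the start of the gene. In Bnip3 the capitals spell CACGTG, which reads the same on both strands. In Chac1 and Atf3 the capitals spell TTGCATCA, the opposite strand of the CARE motif, which begins 193 and 110 bases before the start. The same 8 letters stand in the windows of Nupr1, Fgf21 and Vldlr, further members of the Atf4 list, picked for this match. ACGTG was present in the promoters of 13 of 18 hypoxia marker genes with an entry (72.2%), 8 of 16 glycolytic enzymes, 61 of 141 genes at least 4-fold higher (43.3%), 202 of 768 lower genes not set apart (26.3%) and 3023 of all 10188 tested genes with an entry (29.7%). TGATGNAA was present in 6 of 21 genes of the Atf4 list (28.6%), 9 of 141 genes at least 4-fold higher (6.38%) and 262 of all 10188 (2.57%). The AP-1 motif TGACTCA was present in 18 of those 141 genes (12.8%) and 448 of all (4.40%). Among all 32851 promoter entries, each counted singly, 19.6% hold ACGTG, 7.15% CACGTG, 3.97% TGATGNAA and 5.20% TGACTCA. The shares of genes above count a gene if any of its entries holds the motif, so they are not on the same footing. The lists hold known targets of these factors, so their shares are no independent evidence, and a match is a description, not a binding site.

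The genes that sense oxygen went different ways. Hif1a, the alpha subunit controlled at the protein level, stood at 1399 in normal culture and 1151 under OGD (log2 -0.28). Egln3 and Egln1, prolyl hydroxylases that are HIF targets themselves, went from 546 to 2694 and from 2024 to 9342 (log2 2.28 and 2.20), whereas the third family member, Egln2, ran the other way without reaching 2-fold (log2 -0.96). Arnt, the partner subunit of HIF, stood at 574 and 1981 (log2 1.77). In all, 3 of the 10 tested members of this list were higher and 1 was lower, Epas1 (log2 -2.83), which is set apart and stood at log2 0.30 in the knockdown pair.

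Of 20 tested hypoxia marker genes, 15 were higher and 1 was lower. Their median log2 value was 2.04 against -0.03 over all genes, and 13 were higher with total counts. After Ndrg1, Ero1l and Tmem45a came Pdk1, the kinase that shuts pyruvate dehydrogenase, at 281 and 2867 scaled counts (10.2-fold higher, interval 9.09 to 11.5), and the clock repressor Bhlhe40 (log2 2.73). Selenbp1 had 0 reads in normal culture and 44 under OGD. Rora, which is set apart, was the lower member, and Pfkfb4 stood at log2 0.19. Not every standard marker was available: Car12 and Ppp1r3c did not reach 20. Chosen after its value was seen, the carbonic anhydrase Car9, a common hypoxia marker in tumours, was scarce here, at 4 and 40 reads. Of 12 secreted angiogenic factors, 5 were higher, led by Pgf (303 to 3508) and Vegfa (791 and 4733, 5.98-fold higher, interval 5.57 to 6.43). Angptl4, a secreted lipase inhibitor often listed with hypoxia genes, was lower (log2 -1.37) on 74 and 16 reads.

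Several enzymes that use oxygen as a substrate were higher. Of 14 genes for collagen hydroxylases and lysyl oxidases, 5 were higher. The prolyl hydroxylase subunits P4ha1 (1568 to 9371) and P4ha2 (1399 to 7516) and the lysyl hydroxylase Plod2 (1051 to 4969) had log2 values of 2.57, 2.42 and 2.23. P4hb, the beta subunit shared by the prolyl hydroxylases, stood at log2 1.49 and the crosslinking oxidase Lox at log2 1.18. Loxl1 was lower (log2 -1.14), as was the set-apart P4ha3. Of 17 Jumonji histone demethylases, which also need oxygen, 5 were higher, with Kdm3a at 227 and 1173 (log2 2.32) and Kdm4b at 361 and 1715 (log2 2.22). Jmjd6 stood at log2 1.46. Phf8 was the 1 lower member (log2 -1.02).

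Transcripts of glycolytic enzymes took a larger part of the reads under OGD, 4.60% against 1.68% in normal culture. Of the 16 tested, 12 were higher and 1 lower, and the median log2 value was 1.63. With total counts 12 were higher and 2 lower. Pfkl, a phosphofructokinase, stood at 2814 and 20500.1 (7.29-fold higher, interval 7.02 to 7.56). Aldoa, the aldolase of muscle and most cultured cells, stood at 22471 and 106282 (4.73-fold higher, interval 4.67 to 4.80). Gapdh stood at 70169 and 245227 (3.49-fold higher, interval 3.47 to 3.52). The lactate dehydrogenase subunit Ldha stood at 34629 and 101132 (2.92-fold higher, interval 2.89 to 2.96).

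Isoforms of the same step differed. Of the enolases, Eno1 was higher (39799.5 to 120526, log2 1.60) and the muscle form Eno3 lower (1383 to 432, log2 -1.66), and the knockdown pair had the same signs (log2 1.09 and -2.49). The neuronal form Eno2 was higher (log2 1.66) although it is set apart. Of the phosphofructokinases, Pfkm stood at log2 0.82, against 2.86 for Pfkl and 2.69 for Pfkp. None of the 5 Pfkfb and Tigar genes, which set the level of the allosteric activator of phosphofructokinase, reached 2-fold, from a log2 value of -0.98 for Tigar to 0.33 for Pfkfb2, though 1 was lower with total counts. Of 11 transporters and hexokinases, 6 were higher, with the lactate exporter Slc16a3 at 39.7 and 273, its chaperone Bsg at 18976 and 59508 and the hexokinase Hk2 at 316 and 1519. The neuronal glucose transporter Slc2a3 stood at 36.3 and 25.5, with a log2 value of -0.38.

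Of 18 genes of the glycogen and pentose phosphate list, 5 were higher, among them several of glycogen. Gbe1, the branching enzyme, stood at 127 and 1513 (11.9-fold higher, interval 10.0 to 14.2). Pgm1, which joins glucose 6-phosphate to glycogen synthesis, stood at 1772 and 15532 (8.76-fold higher, interval 8.37 to 9.18), and the glycogen synthase Gys1 at 1075 and 6210.5 (5.78-fold higher, interval 5.43 to 6.15). The glycogen phosphatase subunit Ppp1r3b, on 2 and 24 reads, was higher too. Tkt, a transketolase of the pentose phosphate path, stood at log2 0.96, and the median of the list was 0.13, or -0.18 with total counts. Ppp1r3b was chosen after its value was seen.

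Of 14 genes of pyruvate entry to mitochondria, 2 were higher, Pdk1 and the anaplerotic enzyme Pcx (log2 1.03), and only Pdk1 remained so with total counts. The other pyruvate dehydrogenase kinases had log2 values of -0.04 for Pdk2, 0.70 for Pdk3 and 0.80 for Pdk4. The pyruvate carrier subunit Mpc2 stood at log2 -0.96. None of 20 tricarboxylic acid cycle genes reached 2-fold in either direction, with log2 values from -0.71 to 0.74, and 2 were lower with total counts. Among 18 genes of fatty acid oxidation, Hadha was higher (log2 1.05), and Cpt2 (log2 -1.19) and Etfb (log2 -1.08) were lower.

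**Figure D3:**
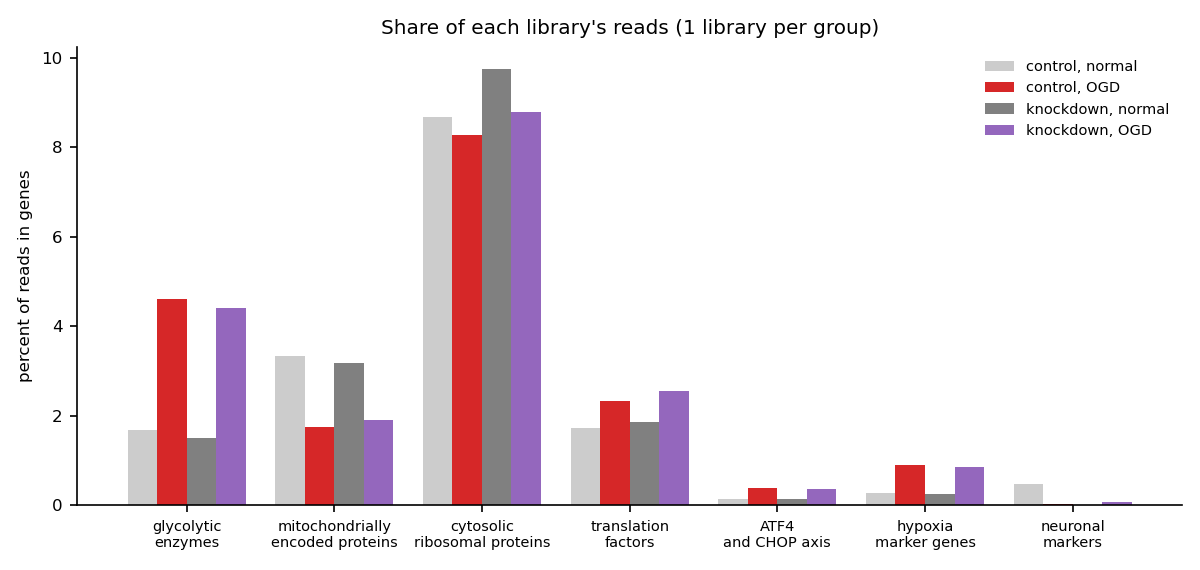
Percent of each library's reads in genes (vertical, from 0) taken by 7 gene lists, 1 bar per library, so bars have no error. Glycolytic enzymes took 1.68% and 4.60% in control cells and 1.49% and 4.42% in knockdown cells, and mitochondrially encoded mRNAs took fewer under OGD in both pairs.

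Among genes of the respiratory chain, of the 13 mRNAs made inside mitochondria, 6 were lower and 0 higher, and 7 were lower with total counts. Their median log2 value was -0.74, and their share of reads was 3.33% in normal culture and 1.74% under OGD. The complex I subunit mt-Nd1 stood at 68072 and 22327 (3.05-fold lower, interval 3.00 to 3.10), and mt-Cytb of complex III at 81462 and 33045 (2.47-fold lower, interval 2.43 to 2.50). The strands are transcribed as long precursors, yet members differed. The log2 value was -0.12 for mt-Co1, -0.03 for mt-Atp6 and 0.28 for mt-Co3, the last of which was -0.03 with total counts. By contrast mt-Co2 went from 57361 to 26833. The same 6 mRNAs were at least 2-fold lower in the knockdown pair, where 9 were.

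Nuclear genes of the chain lay within 2-fold on the authors' scale with 1 exception. Of 37 complex I genes, 1 was higher, Ndufv3 (1127 to 3728, log2 1.72), and the others lay at or above -0.84. All 32 genes of complexes III to V had log2 values between -0.77 and 0.43. With total counts 5 complex I genes and 2 of complexes III to V were lower. Of 32 genes for mitochondrial transcription and translation, Mrpl45 was higher (log2 1.51) and Mtif2 lower (log2 -1.17), and with total counts 1 was higher and 3 lower.

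Of 31 genes of mitophagy and autophagy, 13 were higher and 3 lower (9 and 5 with total counts), and the mitochondrial receptors Bnip3 and Bnip3l had the highest log2 values. Bnip3l, the paralogue of Bnip3, stood at 986 and 5921 (6.00-fold higher, interval 5.63 to 6.41), and Atg14, of the kinase complex that starts the autophagosome, at 56.1 and 362. Among adaptors that hold cargo, Sqstm1 (p62) stood at 9529 and 33559 (3.52-fold higher, interval 3.45 to 3.60) and Calcoco1, a receptor of ER autophagy, at 454 and 1769. The mitophagy kinase Pink1 was lower (log2 -1.62), but is set apart and stood at log2 1.19 in the knockdown pair. Ulk2 stood at log2 -1.11.

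All 22 lysosomal genes had log2 values above 0, from 0.23 to 1.82, and 10 were higher. With total counts 21 were above 0 and 7 higher, and the median of 0.90 became 0.59. Ctsa, a protective carboxypeptidase, stood at 2592 and 9177 (3.54-fold higher, interval 3.39 to 3.69). Gla, the alpha-galactosidase, stood at 354 and 1246. The proton pump subunits Atp6v0d1 and Atp6v1a had log2 values of 1.71 and 1.52. Mcoln1, the lysosomal calcium channel on the autophagy list, stood at log2 1.73.

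The Atf4 axis had the highest median log2 value of the lists, 2.12, with 18 of 24 members higher and 1 lower (16 and 2 with total counts). Atf3, a stress transcription factor, stood at 117 and 1199 (10.2-fold higher, interval 8.53 to 12.3). Chac1, which breaks down glutathione, stood at 388 and 3574 (9.22-fold higher, interval 8.34 to 10.2), and Cth, of cysteine synthesis, at 29.4 and 308. Atf4, Ddit3 and Eif2ak3 were chosen after their values were seen. Atf4 itself stood at 7292 and 30864 (4.23-fold higher, interval 4.13 to 4.34) and Ddit3 at 698 and 4944 (7.08-fold higher, interval 6.57 to 7.65). The lower member was Eif2ak2, the double-stranded RNA kinase PKR (log2 -1.26), and the ER kinase Eif2ak3 stood at log2 -0.81.

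Of 17 genes of serine, one-carbon and asparagine synthesis, 9 were higher and 0 lower (7 and 0 with total counts), and 4 were higher in the knockdown pair. Mthfd2, of the mitochondrial folate path, stood at 729.8 and 3498 (4.79-fold higher, interval 4.44 to 5.18). Asns, the asparagine synthetase, stood at 2360.5 and 8849 (3.75-fold higher, interval 3.59 to 3.92), and Aldh1l2 at log2 1.99. Of 11 amino acid transporters, 5 were higher and 1 lower (3 and 1 with total counts). In the knockdown pair 2 were higher and 2 lower, with a median log2 value of -0.16. The higher ones were led by the arginine carrier Slc7a1 (log2 2.05), the glycine carrier Slc6a9 (log2 1.95) and Slc3a2, the heavy chain shared by several carriers (log2 1.83). Slc7a1 stood at log2 0.04 in the knockdown pair. The cystine carrier Slc7a11, an Atf4 and NRF2 target, stood at log2 -0.26. The glial glutamate carrier Slc1a3 was lower (log2 -2.65).

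Of 20 aminoacyl-tRNA synthetases, 6 were higher and 0 lower (5 and 0 with total counts). Sars stood at 4729 and 17036 (3.60-fold higher, interval 3.49 to 3.72), Tars at log2 1.73 and Cars at log2 1.66. In the knockdown pair 2 were higher. Host genes of small nucleolar RNAs, whose spliced transcripts are short-lived when translation runs, were higher in 7 of 14 cases, with a median log2 value of 1.10. Snhg12 stood at 361 and 1462 (4.05-fold higher, interval 3.62 to 4.53) and Snhg1 at 1140.1 and 3373. Their median in the knockdown pair was 0.24, with 2 higher and 2 lower, and whether the 2 pairs differ was not tested.

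Of 23 sensors of the unfolded protein response and genes of ER-associated degradation, 7 were higher and 0 lower (4 and 1 with total counts). Herpud1, an organiser of the degradation complex, stood at 1005 and 5999 (5.97-fold higher, interval 5.60 to 6.36), Syvn1, its ubiquitin ligase, at log2 1.35, and the sensor Ern1 at log2 1.03. Dnajb9 was higher (log2 2.58) although set apart. Of 20 chaperones and disulfide isomerases, 5 were higher, with Hspa5 (BiP) at 9014 and 28929 (3.21-fold higher, interval 3.14 to 3.28) and Sil1, its exchange factor, at log2 1.75. Dnajc10 stood at log2 -0.97.

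Of 21 heat shock proteins, 6 were higher and 0 lower (5 and 0 with total counts). Dnajb1, a co-chaperone, stood at 1364 and 6923 (5.08-fold higher, interval 4.80 to 5.37), and the small heat shock protein Hspb1 at 1132 and 4395. The inducible Hspa1a and Hspa1b are near-identical copies, so their reads may be split between them. They had log2 values of 2.70 and 2.91, and 5.16 and 5.88 in the knockdown pair. Both are set apart.

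Among genes of metal and oxidant defence, Mt2, a metallothionein that binds zinc and copper, was among the 10 largest gains in scaled counts, from 8036 to 74076 (9.22-fold higher, interval 9.02 to 9.42). Its neighbour Mt1, chosen after its value was seen, stood at 6619 and 63346 (9.57-fold higher, interval 9.34 to 9.80). In the knockdown pair their log2 values were 2.33 and 2.90. The zinc exporter Slc30a1, a target of the same metal-sensing factor and also chosen after its value was seen, stood at log2 0.79. Of 23 NRF2 antioxidant genes, 2 were higher, the haem oxygenase Hmox1 (4931 to 27277, 5.53-fold higher, interval 5.37 to 5.70) and Osgin1 (log2 1.95), and 0 were lower. The median log2 value of that list was -0.03, and the mitochondrial dismutase Sod2 stood at log2 -0.79.

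Fast-response transcription factors were mixed, and many are among the genes set apart. Of 16 AP-1 and small Maf genes, 8 were higher and 1 lower (4 and 1 with total counts). Maff led, Fos stood at 196 and 1379 (7.03-fold higher, interval 6.10 to 8.14) and Jun at 1353 and 3808 (2.81-fold higher, interval 2.65 to 2.99). Among 25 Egr, Nr4a, Zfp36, Btg and Ier genes, 5 were higher (3 with total counts), with the stress kinase Plk3 at log2 2.97 and the nuclear receptor Nr4a1 at log2 2.67. There were 7 lower with total counts. The 5 lower members on the authors' scale are all set apart, among them the neuronal activity genes Arc (log2 -1.89, 3.06 in the knockdown pair), Egr3 (log2 -4.25, 3.27) and Egr4 (log2 -5.56, 1.03). Of 18 Dusp and Spry feedback inhibitors, 3 were higher: Dusp4, Dusp1 (log2 1.60) and Dusp5 (log2 1.04). Of 12 Kruppel-like factors, 5 were higher, led by Klf11 (log2 2.25) and Klf4 (log2 1.92), and the 2 lower ones, Klf9 and Klf15, are set apart. Of 20 clock genes, Ciart (log2 2.76), Bhlhe40 and the repressor Nr1d1 (log2 2.06) were among 5 higher, and all 5 lower ones are set apart.

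The 15 lowest genes that are not set apart held chemokines, a glucose-responsive gene and an Id gene. Cxcl5, a neutrophil chemokine, stood at 1825 in normal culture and 90.3 under OGD (20.2-fold lower, interval 16.1 to 25.7). Txnip, a thioredoxin-binding arrestin whose transcription follows glucose (ENSMUSG00000038393, chromosome 3, 96557957 to 96561883, plus strand, GRCm38), stood at 941 and 49.8 (18.9-fold lower, interval 13.9 to 26.3). In the knockdown pair its log2 value was -1.52. Id3, an inhibitor of basic helix-loop-helix factors, stood at 5418 and 395 (13.7-fold lower, interval 12.3 to 15.3). Them6 (log2 -3.72), the growth factor Tgfb2 (log2 -3.62), the secreted C1qtnf1 (log2 -3.51), the kinase-like Trib2 (log2 -3.43) and Synpo, an actin-binding protein (log2 -3.17), were in the 15 lowest. Map2k3os, an antisense RNA, rested on 170 and 3 reads, and reads of its overlapping gene may not be separable. Socs2, a cytokine feedback inhibitor, rested on 124 reads and 1 read. The remaining members were Klhdc7a, Cxcl1, Syt12, Rasl11a and Kazald1. All 15 were at least 2-fold lower in the knockdown pair, with log2 values from -4.57 to -1.07.

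Of 20 genes on the list of mTORC1 regulators and arrestin-domain proteins, 2 were lower, Txnip and Castor1 (log2 -1.03). Another 3 were higher, Sesn2 (log2 2.33), Ddit4 (log2 1.51) and Tsc1 (log2 1.62), where 10.6% of all tested genes were higher. The median log2 value of the list was -0.19. Arrdc2, a relative of Txnip chosen after its value was seen, had a log2 value of -0.93.

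Of 25 BMP, TGF-beta and Id genes, 8 were lower (6 of them not set apart) and 2 higher, and with total counts 11 and 1. Id1, a direct BMP target, stood at 1611 and 377 (4.27-fold lower, interval 3.79 to 4.82) and the inhibitory Smad6 at 619 and 96.1 (6.44-fold lower, interval 5.13 to 8.19). The BMP antagonist Grem1 was higher (734 to 2097, 2.86-fold higher, interval 2.63 to 3.10), as was Smad4 (log2 1.19). Id2 and Tgfb3, chosen after their values were seen, complete the 6 with log2 values of -1.86 and -1.73.

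Chemokines and mediators went both ways: of 23, 8 were lower (7 not set apart) and 6 higher, and with total counts 12 and 5. Cxcl1 stood at 2824 and 265 (10.7-fold lower, interval 9.31 to 12.2), the monocyte attractant Ccl2 at 7081 and 1360.4 (5.20-fold lower, interval 4.90 to 5.54) and the membrane-bound chemokine Cx3cl1 at 2918 and 572 (5.10-fold lower, interval 4.64 to 5.62). Ptgs2, the inducible cyclooxygenase, was higher (1522 to 11866, 7.80-fold higher, interval 7.41 to 8.21), with the NF-kappaB brake Tnfaip3 (log2 1.79) and complement C3 (log2 1.63). Of 20 interferon-stimulated genes, 5 were lower and 2 higher, and 6 more did not reach 20.

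Of 19 matrix proteases and their inhibitors, 8 were lower (7 not set apart) and 2 higher, and with total counts 11 and 1. The aggrecanase Adamts4 rested on 130 and 5 reads, the gelatinase Mmp2 on 91 and 8, and the plasminogen activator Plau stood at 278 and 76.4 (3.64-fold lower, interval 2.79 to 4.82). Its receptor Plaur was higher (log2 1.27), as was the inhibitor Serpinb2, on 4 and 55 reads with a log2 value of 0.10 in the knockdown pair. Of 26 collagens and matrix genes, 0 were higher and 3 lower, Col1a2 and Thbs2, both set apart, and the microfibril gene Fbn1 (log2 -1.51). Col1a1 stood at 45399.7 and 28802, a log2 value of -0.66.

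**Figure D4:**
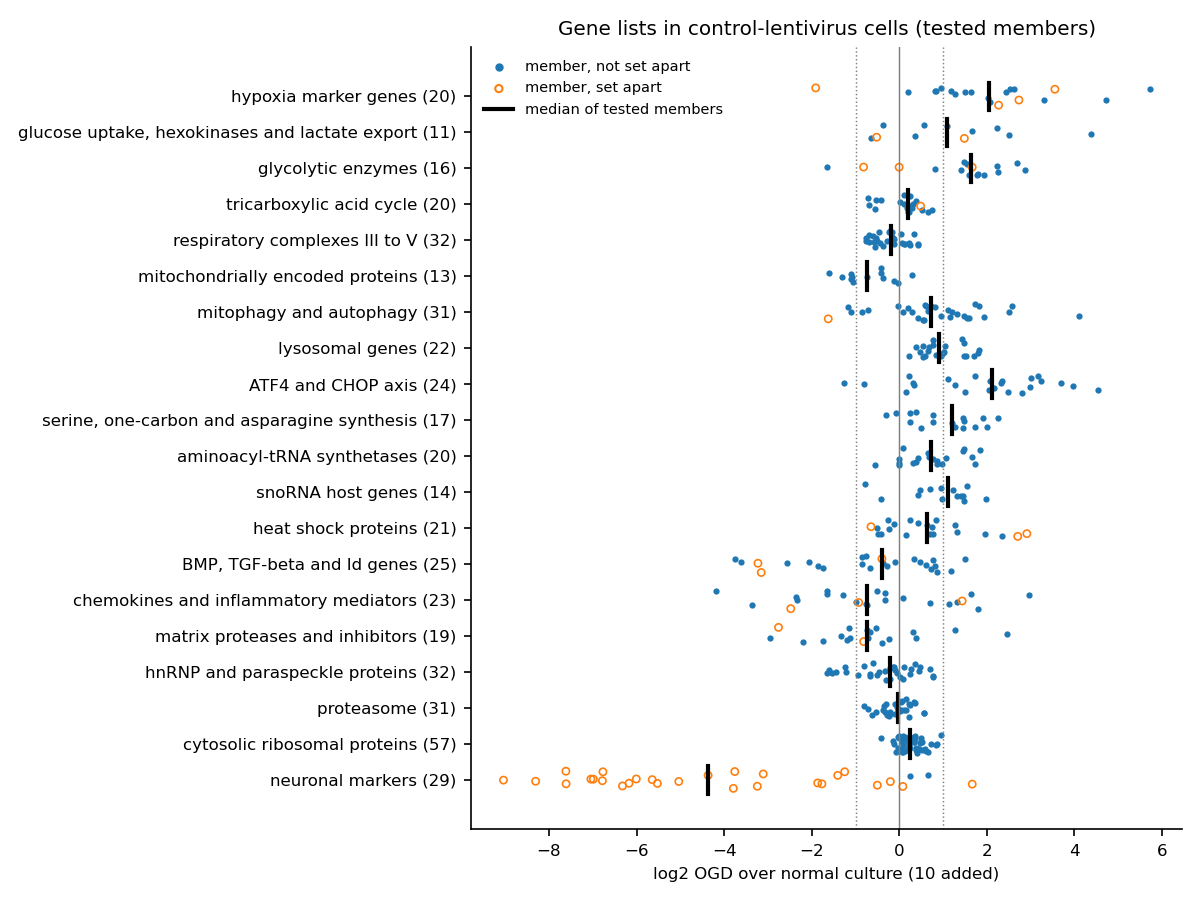
Log2 of OGD over normal culture (horizontal, 10 added) for each tested member of 20 gene lists in control-lentivirus cells. Points are genes (open orange if set apart), bars medians and dotted lines the 2-fold limits; the Atf4 axis (2.12) and hypoxia markers (2.04) lie to the right, ribosomal proteins and proteasome within the limits, and neuronal markers, nearly all set apart, far to the left.

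Among regulators of the G1 phase, Cdkn1a (p21), an inhibitor of cyclin-dependent kinases, stood at 151 and 2091 (13.8-fold higher, interval 11.8 to 16.2), and cyclin D1, Ccnd1, at 814 and 176 (4.63-fold lower, interval 3.90 to 5.53). Of 31 genes of this list 5 were higher and 7 lower (5 not set apart). Mxd1, an antagonist of Myc, was higher (log2 2.35) and Mxd3 lower (log2 -2.17), while Myc itself stood at 1744 and 5481 (3.14-fold higher, interval 2.98 to 3.31). Of 33 DNA replication genes, 5 were higher and 1 lower, and with total counts 2 and 3. Higher were, among others, the licensing factors Cdt1 (log2 1.64) and Cdc6 (log2 1.43), and the lower gene was the thymidine kinase Tk1 (6172 to 1541, 4.01-fold lower, interval 3.78 to 4.25). Of 31 mitosis genes, 0 were higher and 2 lower, the kinesin Cenpe (log2 -1.35) and the proliferation marker Mki67 (2483 to 1237), and the same count held with total counts.

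Of 26 p53 targets, 8 were higher and 2 lower (7 and 5 with total counts). Gadd45a, a DNA damage and stress gene, stood at 686 and 4429.8 (6.46-fold higher, interval 5.98 to 6.98) and Mdm2, the ligase that removes p53, at 316 and 1283. Ccng1 (log2 -1.37) and Pidd1 (log2 -1.31) were lower, so the list did not lie on 1 side. Of 26 caspases and BCL2 family genes, 1 was higher, Casp2 (log2 1.06), and 2 were lower, the inhibitor Birc2 (log2 -1.39) and Casp4 (log2 -1.02), while with total counts 0 were higher and 6 lower. The death gene Bbc3 stood at 158 and 295 (log2 0.86).

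Neat1, the RNA that scaffolds paraspeckles and the target of the virus in the other arm (ENSMUSG00000092274, chromosome 19, 5824708 to 5845478, minus strand, GRCm38), stood at 3273 and 1325 (2.47-fold lower, interval 2.31 to 2.64) in these control cells. Malat1 stood at 975 and 1345, and its log2 value of 0.46 became -0.03 with the deposited FPKM (fragments per kilobase of transcript, scaled to library size). Of 32 hnRNP and paraspeckle proteins, 6 were lower and 0 higher (8 and 0 with total counts). The paraspeckle proteins Sfpq (4544 to 1433, 3.17-fold lower, interval 2.98 to 3.38), Rbm14 (log2 -1.61) and Pspc1 (log2 -1.55) were among them, with the cold-inducible Cirbp (log2 -1.46), while Nono, the partner of Sfpq and chosen after its value was seen, stood at log2 0.70. Of 11 nuclear noncoding RNAs, Pvt1 (log2 1.33) and Gm26917 (log2 1.75) were higher, and 5 were lower, 4 of them set apart; Gm26917 was lower in the knockdown pair (log2 -1.27).

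Large housekeeping groups lay within 2-fold on the authors' scale. None of 57 cytosolic ribosomal protein genes (log2 from -0.41 to 0.94) and none of 31 proteasome genes (log2 from -0.81 to 0.56) reached 2-fold, and with total counts 0 and 2 did, both lower. Of 40 ribosome biogenesis genes, 2 were higher, Taf1d (log2 1.41) and Pes1 (log2 1.11), and 1 lower, Nhp2 (log2 -1.05); with total counts 6 were lower, and in the knockdown pair 14. Of 28 translation factors, 6 were higher and 0 lower (3 and 1 with total counts), with the start-codon factor Eif1 at 7377 and 29553 (4.01-fold higher, interval 3.91 to 4.11), the mTORC1 target Eif4ebp1 at log2 1.49 and the elongation factor Eef2 at log2 1.16. Of 35 splicing factors 3 were higher and 0 lower (1 and 2 with total counts), led by the kinase Clk3 (log2 1.95), and of 27 nuclear pore and import genes 3 were higher and 1 lower.

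Of 30 genes of cholesterol and fatty acid synthesis, 3 were higher and 3 lower. Acaca, which commits carbon to fatty acids, stood at 851 and 117 (7.28-fold lower, interval 5.92 to 9.02) and Elovl6, which lengthens them, at 143 and 41.7. The sterol enzymes Fdps, Nsdhl and Lss were higher, at log2 1.70, 1.57 and 1.30. Vimentin, Vim, stood at 34115 and 119089 (3.49-fold higher, interval 3.45 to 3.53), and the actin Actg1 at 62841 and 188279 (3.00-fold higher, interval 2.97 to 3.02). Of 25 YAP and actin response genes, 7 were higher (3 with total counts, and 10.6% of all genes were higher on the authors' scale), with the coactivator Wwtr1 (TAZ) at log2 1.69. Tuba1a and Tuba1b stood at log2 -0.85 and -0.58, and Tubb4a, a set-apart neuronal tubulin, at log2 -2.53.

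Of 19 genes often used to normalise qPCR, 3 were higher, among them Pgk1 (3.81-fold higher, interval 3.73 to 3.90) and Gapdh, and 2 lower, Gusb (3.11-fold lower, interval 2.82 to 3.44) and Tfrc (3.79-fold lower, interval 3.22 to 4.49). These counts lie near the shares over all genes, 10.6% higher and, among genes not set apart, 9.63% lower. The remaining 14 lay within 2-fold, of which 1 was lower with total counts. All 5 had the same sign in the knockdown pair, where Tfrc stood at log2 -0.70.

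In scaled counts the largest differences lay in a few abundant transcripts. With names such as Gm, CT or Rik left out, Gapdh had the largest gain, 175058 scaled counts, followed by Actg1 with 125437, the noncoding AY036118 with 104647 and Pkm with 95532. Vim, Aldoa, Eno1, the ferritin light chain Ftl1, Ldha and Mt2 completed the 10, which gained 952875 in all. The structural RNAs CT010467.1 and Gm42418, described in the next paragraph, gained more, 353795 and 204714. The 10 largest losses among genes not set apart, provisional names left out, summed to -257702. They were 5 mitochondrially encoded mRNAs led by mt-Cytb, which dropped by 48417, the galectin Lgals1 (111719 to 80359), the tubulins Tuba1b and Tuba1a, Col1a1 and Eif5a. The mitochondrial mRNAs passed 2-fold and the other 5 did not. Gm28661, a provisional name chosen after its value was seen, dropped by 30605. Per length, in the deposited FPKM, Gapdh stood at 6221 and 17584, Ndrg1 at 25.4 and 982 and Slc2a1 at 31.8 and 523, so on that scale Gapdh remained far above both under OGD.

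A set of noncoding and structural RNAs ran in opposite directions in the 2 pairs of libraries, and its genes were chosen after their values were seen. It holds the annotated rRNA, ribozyme and miscellaneous RNA genes, 3 more genes at a ribosomal RNA locus of chromosome 17 (39843013 to 39848827, GRCm38), and Lars2, the mitochondrial leucyl-tRNA synthetase. These genes took 1.99% of the reads in control-normal, 5.25% in control-OGD, 4.78% in knockdown-normal and 0.404% in knockdown-OGD cells. The set was therefore low in control-normal cells, lowest in knockdown-OGD cells and high in the other 2. CT010467.1, annotated as ribosomal RNA, had 187329, 445318, 497985 and 34599 reads in that order. Gm42418 (log2 1.75 in control and -3.55 in knockdown cells) and AY036118 (1.80 and -3.67) overlap it, so their reads may be shared with it. Lars2 stood at 1.65 and -3.59.

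Rmrp, the RNA of the MRP ribonuclease, stood at 1.95 and -3.76, and Rpph1, the RNA of ribonuclease P, had 113, 246, 312 and 0 reads in the order above. The signal recognition particle RNAs Rn7s1 (1.64 and -3.27) and Rn7s2 (1.64 and -3.35) are near-identical copies whose reads may be split. Rn7sk, the RNA that holds the elongation factor P-TEFb inactive, stood at 2.05 and -2.40. Of 14 genes of the set tested in both pairs, 13 were at least 2-fold higher in control and at least 2-fold lower in knockdown cells. When their reads were left out of the total counts, 950 genes were higher and 1774 lower genes were not set apart, against 867 and 1877 with all reads. The part of these RNAs in the other differences was not tested.

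When the tested genes were divided into 5 equal bins by their larger scaled count, the share called lower among genes not set apart was 20.5% in the lowest bin and 3.46% in the highest, while the share called higher was 9.62% and 15.3%. In 5 bins by median transcript length, 7.98% of the shortest and 12.6% of the longest genes not set apart were lower. Of 147 long intergenic noncoding RNAs not set apart 40 were lower (27.2%), and of the protein-coding genes 8.98%. Of 572 processed pseudogenes, whose reads may come from their parent genes, 83 were higher (14.5%). Noncoding RNAs have low levels, and level and class were not separated.

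The genes set apart hold markers of several brain cell types. Of 29 tested neuronal markers, 27 were set apart, 23 were lower under OGD, 1 was higher (Eno2), and the median log2 value was -4.37. In reads, Pcsk1n, a prohormone convertase inhibitor, had 17385 in normal culture and 16 under OGD; in knockdown cells it had 10 and 181. Nrgn, a postsynaptic calmodulin-binding protein, had 21469 and 42, and 19 and 449 in knockdown cells. Thus these transcripts were high in 1 of 4 libraries and low in the rest. The summed share of the neuronal list was 0.468% in control-normal, 0.0251% in control-OGD, 0.00904% in knockdown-normal and 0.0643% in knockdown-OGD reads. In control-OGD cells 18 of the 32 listed markers had fewer than 20 reads. The summed share was lower still in knockdown-normal cells, and the labelled neuronal identity was not tested.

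Markers of other cells did not all share this pattern. Of 11 oligodendrocyte lineage markers 8 were lower, among them Olig1 (1622 and 2 reads) and Mbp (2368 and 97). The summed share of that list was 0.0359% in control-normal, 0.00942% in control-OGD, 0.00843% in knockdown-normal and 0.0157% in knockdown-OGD reads. Of 7 astrocyte markers 5 were lower and 1 higher, and Gfap had 102 and 0 reads. The summed share of the astrocyte list was 0.0236% in control-normal, 0.0217% in control-OGD, 0.00748% in knockdown-normal and 0.0258% in knockdown-OGD reads. In control-OGD cells 8 of the 11 listed astrocyte markers had fewer than 20 reads, so few members made up that sum. Of 5 endothelial and mural markers 2 were lower and 1 higher, and 1 was set apart. Their summed share was 0.104% in control-normal, 0.192% in control-OGD, 0.0684% in knockdown-normal and 0.126% in knockdown-OGD reads. It was higher under OGD in both pairs, but most of the sum in control cells was Acta2, which is also on the actin response list. Acta2 stood at log2 1.27, and at 0.91 in the knockdown pair. Under OGD 9 of the 12 listed markers had fewer than 20 reads, and the claudin Cldn5 had 326 and 0 reads. The haemoglobin gene Hba-a1 had 592 and 2. Of 6 microglia and macrophage markers 3 were lower and 2 higher, Cd68 (log2 2.01) and Csf1r (log2 1.07), and the defining C1qa had 75 reads and 1 read. The summed share of that list was 0.0136% in control-normal, 0.00919% in control-OGD, 0.0105% in knockdown-normal and 0.0144% in knockdown-OGD reads. The part of these transcripts in the other differences was not tested. The 15 lowest genes described above were at least 2-fold lower in the knockdown pair too, but the rule that sets genes apart uses knockdown-normal cells and favours that.

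The same genes were then read in the knockdown pair, which shares no library with the control pair. Of the 1425 genes higher in control cells and measured in both, 1300 had the same sign (91.2%), against 70.2% of all 13024 genes measured in both. At least 2-fold higher were 850 (59.6%), against 17.8% of those 13024. For the genes at least 4-fold higher, 154 of 180 were at least 2-fold higher (85.6%). Of 1092 lower genes not set apart, 1029 had the same sign (94.2%), and of all 11369 genes not set apart 8540 did. At least 2-fold lower were 687 (62.9%), against 15.3% of all 13024 genes measured in both. That reference share includes the genes set apart, which the 1092 leave out. Setting genes apart by their level in knockdown-normal cells favours the same sign among those that remain. Of 949 set-apart lower genes measured in both, 191 had the same sign (20.1%) and 578 were at least 2-fold higher (60.9%). The rule favours opposite signs in these genes, because it takes genes low in knockdown-normal cells. Across genes, which are not independent replicates, Pearson's r was 0.16 over all 13024 and 0.71 over the 11369 not set apart. Leaving out the set-apart genes favours the larger value for the same reason.

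**Figure D5:**
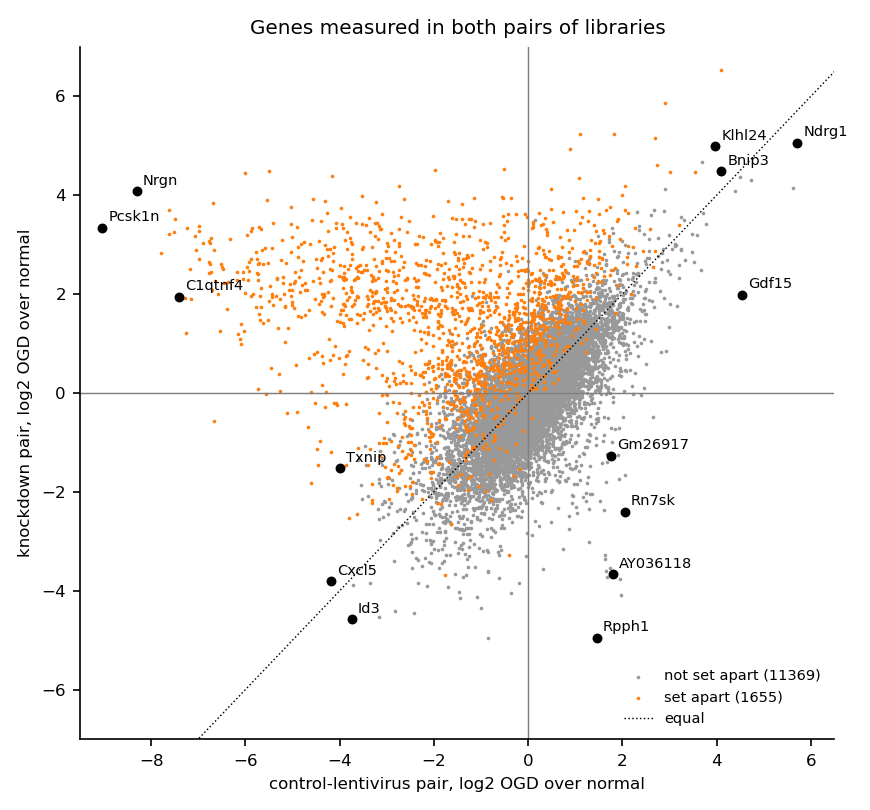
Log2 of OGD over normal culture in the knockdown pair (vertical) against the control-lentivirus pair (horizontal), 1 point per gene measured in both, with the line of equality. Grey genes run along the line, set-apart genes (orange) spread to the upper left, and structural RNAs such as AY036118 (1.80 and -3.67) and Rn7sk (2.05 and -2.40) stand at the lower right.

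Some leading genes differed between the pairs in size. Gdf15 stood at log2 4.54 in control cells and 1.99 in knockdown cells, with normal-culture reads of 76 and 350. Crebrf had a log2 value of 3.69 in the control pair and 4.66 in the knockdown pair. Over the Atf4 list the median log2 value was 2.12 in control cells and 1.20 in knockdown cells, and over the hypoxia markers 2.04 and 2.64. With 1 library per group these differences between pairs were not tested.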

How the data were processed

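Total RNA of HT22 cells was sequenced, 1 library per group; this summary covers control-lentivirus cells in normal culture and under OGD. TRIzol was used for the RNA, per the labels' protocols, which was fragmented and copied to cDNA with 1 strand marked by deoxy-UTP. TopHat2 and the mm10 build are named in the submitters' processing notes; the counter, annotation and strand setting are not given in the sources used. The deposited tables hold, per the file headers, the authors' scaled counts (a signal: reads divided by a size factor), a fold ratio, its log2, p-value and adjusted p-value, and a call of up or down. The last columns, 1 for each sample, hold deposited values read as FPKM from their size. Because whole reads were recovered from the deposited scaled counts (100% within 1e-06 of a whole number), intervals use reads. Value columns that match no sample numbered 0.

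The value was log2 of (OGD + 10) over (normal + 10), over genes with 20 or more. Genes over 2-fold higher in control-normal than in knockdown-normal cells, in the authors' table of those 2, were set apart. No count test was run. The call rule and the intervals were tested on simulated reads with counting error only. That cannot show how the calls fare under variation between libraries. The plan held 58 gene lists and 7 marker lists; 1456 of 1482 symbols matched. Members and lists were chosen with earlier results of these data known. Genes are named by rule: the 15 highest, 15 lowest, 8 lowest set apart and 10 largest gains and losses with 100 or more (names such as Gm, CT or Rik left out), up to 6 members per list with 50 or more, all members of lists of 16 or fewer, up to 3 opposite members, Neat1 and Malat1; a few others, such as Car9, Mt1 or the structural RNAs, were chosen after their values were seen. A few genes are not reported here. Names come from GENCODE M21 (GRCm38); 19912 of 20089 identifiers matched. Alternatives were total counts, TMM, 1 or 50 added, a floor of 100 or none, FPKM and other rules for setting apart; total counts without structural RNAs were added after the data were seen. Python 3.11.15, numpy 2.4.6, pandas 2.3.3, scipy 1.17.1, matplotlib 3.10.9, R 4.3.3 and edgeR 4.0.16 (TMM factors only) were used.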

Additional observations from a re-analysis of the deposited data

Results flagged for a closer look

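In 9 genes among the highest, the lowest set apart and the largest gains named above, the OGD difference ran at least 2-fold in opposite directions in the 2 pairs of libraries; with 1 library per group the difference between the pairs was not tested. For 8 of them, all set apart, the control pair was lower and the knockdown pair higher. These 8 were named as the lowest genes set apart, a choice that takes genes high in control-normal and low in knockdown-normal cells and so favours opposite directions. Pcsk1n stood at -9.04 and 3.34, Nrgn at -8.31 and 4.09, Cdk5r2, an activator of a neuronal kinase, at -7.78 and 2.84, and the dendritic Ddn at -7.61 and 3.71. The neuropeptide Cck stood at -7.61 and 3.22, the brain creatine kinase Ckb at -7.52 and 3.26, Fbxl16 at -7.50 and 3.53, and C1qtnf4 at -7.41 and 1.95. Their reads were high in the control-normal library and low in the other 3, where C1qtnf4 had 5, 1 and 31 against 3101.

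AY036118, annotated as a long intergenic noncoding RNA, was higher under OGD in control cells (1.80) and lower in knockdown cells (-3.67). Its reads were 48954 in control-normal, 126903 in control-OGD, 136541 in knockdown-normal and 9849 in knockdown-OGD cells, so it was lowest in knockdown-OGD cells. It overlaps CT010467.1, annotated as ribosomal RNA, which stood at 1.67 and -3.72, so the same reads may lie behind both.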

How the results depend on the processing

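Genes higher under OGD numbered 1477, 867 with total counts and 940 with FPKM; lower genes numbered 2756, 1637 with 50 added and 1647 with a floor of 100. Lower genes not set apart numbered 1102, 1877 with total counts, 1748 with FPKM and 597 with 50 added. Total counts without structural RNAs, chosen after seeing the data, gave 950 and 1774. All 867 genes higher with total counts were among the 1477, which largely follows from the downward shift of that scale. The share of higher genes with the same sign in the knockdown pair, 91.2%, was 89.4% with 1 added, 96.7% with 50 added, 95.1% with a floor of 100 and 83.7% with no floor. For lower genes not set apart it was 94.2%, and 92.6% with total counts, 97.5% with 50 added and 97.2% with a floor of 100. Other rules for setting apart gave 917 (1.5-fold), 1387 (4-fold) and 1331 (over 2 times each other library) lower genes. Of 64 list medians 14 changed sign with total counts, all within 0.30 of 0 before. The median of the microglia and macrophage markers, -1.09, was 0.80 with a floor of 100. Of 353 named genes past 2-fold, none changed sign under total counts, TMM, 1 or 50 added or FPKM, and 311 kept 2-fold with total counts. Only FPKM could have changed a sign here. Another added number cannot, and total counts and TMM moved the median by only -0.30 and -0.07. Setting members at 0 reads to a bound of 3 reads changed no list median. With 1 or 2 such members in each list that had any, a median could hardly have moved. No paired analysis was possible because each group holds 1 library, and leaving out a library was not possible for the same reason.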
